A study of Homo sapiens with 4 samples.

Results

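The 76 genes described here encode the chains of collagens, laminins and integrins. Membership follows from the gene symbol: 44 collagen chains (COL followed by type and chain number), 12 laminin chains (LAMA, LAMB and LAMC), 12 integrin alpha subunits (ITGA followed by a number or V) and 8 integrin beta subunits (ITGB). The tables list 20457 features in all. RNA was sequenced from HEK293, an established human embryonic kidney line, in 4 libraries. The cells received 10 nM siRNA for 72 h, either a negative control (siControl, labelled WT, 2 libraries) or siRNA against CNOT4 (siCNOT4, labelled as CNOT4 knockdown, 2 libraries). CNOT4 is a RING-type ubiquitin ligase linked to the CCR4-NOT deadenylase complex, and the stated aim was to examine its part in how codon usage affects expression. Nothing in the labels says that the libraries of a group came from separate cultures, so p values measure only the spread between these libraries, which may be technical. Whether the knockdown used a single siRNA is not given in the sources used here.

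Collagens are trimers of chains with a long glycine-rich repeat, and they are exported to form fibrils, sheets or filaments outside the cell. Laminins are cross-shaped trimers of an alpha, a beta and a gamma chain, and with the type IV collagen network they build the basement membrane. Integrins are the transmembrane receptors for these matrices, each an alpha subunit paired with a beta subunit that joins the adhesion complex and the actin cytoskeleton inside the cell. In epithelial cells of the kidney, basement membrane chains and their receptors are the characteristic members of these families.

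Expression is given in TPM, a transcript abundance that is adjusted for transcript length and sums to 1000000 in each library. Fold changes are on the log2(TPM + 1) scale, siCNOT4 over siControl, which makes changes look smaller where TPM is low. A gene is said to have risen or fallen where limma's adjusted p was under 0.05 in the fit over all 14208 features averaging 1 TPM or more. *CNOT4* itself had 6.43 and 4.73 TPM in siControl against 3.38 and 3.81 in siCNOT4 (log2 fold change -0.51, limma adjusted p 0.184). The lower level of the target thus did not pass the threshold for TPM as deposited. Both siCNOT4 values lay below both siControl values, as for 10.6% of all features. The median fold change of all tested features was 0.50, and TMM scaling brought it to 0.03. That scaling divides siControl by 0.968 and 0.718 and siCNOT4 by 1.18 and 1.22, which makes the difference in *CNOT4* larger. The siControl libraries also differed from each other, long transcripts being lower in replicate 2. For these reasons the called changes of the collagen, laminin and integrin genes named below are also given after TMM scaling and without siControl replicate 2, where the medians of all features were 0.03 and 0.29. Of 9 genes listed as typical of HEK293, 8 had at least 1 TPM in every library, and the remaining gene, *NEFM*, ranged from 0.412 to 0.916 TPM.

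HEK293 cells expressed a basement membrane set with its receptors, together with type II and type VI collagen. Of the 76 genes, 51 had a mean TPM of at least 1 and were tested (25 collagens, 10 laminin chains, 11 integrin alpha and 5 integrin beta subunits), and 22 had at least 10. *ITGB1*, the common beta subunit of the matrix receptors, was the most abundant of the beta subunits, and it held 84.9% to 87.0% of the summed TPM of that family in all 4 libraries. *LAMC1*, the gamma chain of most laminins, held 30.9% to 41.1% of the laminin TPM. Among collagens no chain dominated: *COL6A1*, *COL4A2*, *COL2A1* and *COL6A2* each held between 8.37% and 20.3%. The fibril chain *COL1A2*, partner of *COL1A1* in ordinary type I collagen, was at 0.0143, 0, 0.0150 and 0.0152 TPM, so type I chains were represented almost entirely by *COL1A1*.

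**Figure D1:**
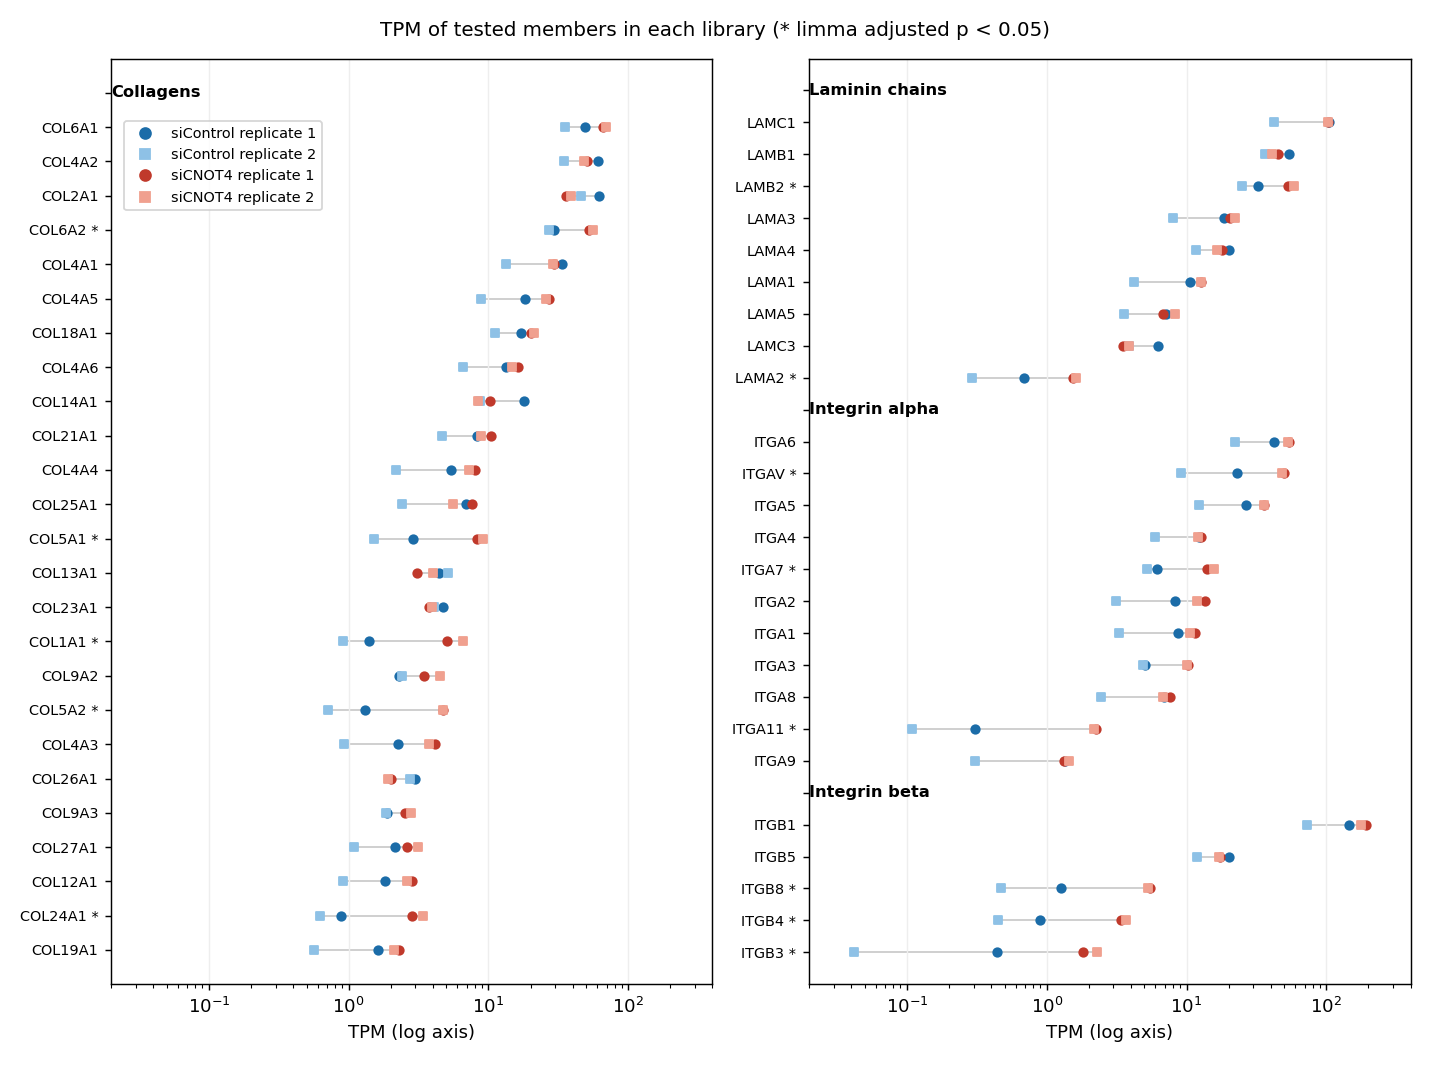
TPM of 50 of the tested genes in each library on a log axis, collagens on the left and laminin and integrin chains on the right, ordered by mean TPM within a class. Circles and squares are the replicates of siControl (blue) and siCNOT4 (red), grey lines span the 4 values, and asterisks mark the 13 of them with a limma adjusted p under 0.05. The light blue squares, siControl replicate 2, sit lowest for most genes, while the siCNOT4 replicates lie close together.

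In siCNOT4, 14 of the 51 tested genes rose and 0 fell. Over all features 11.3% rose and 1.3% fell (12.6% in either direction). By class the genes that rose were 5 of 25 collagens, 3 of 10 laminin chains, 3 of 11 integrin alpha and 3 of 5 integrin beta subunits. The median fold change was 0.69 over the 51 genes against 0.50 over all features. It was 0.60 for collagens, 0.69 for laminin chains, 0.91 for integrin alpha and 1.31 for integrin beta subunits. Of the 5 beta subunits, *ITGB3*, *ITGB4* and *ITGB8* entered the test only through siCNOT4, so that last median was partly set by the filter. Among features averaging 5 TPM or more it was 0.49 for the 2 beta subunits left, against 0.48 over all features. Many of the genes that rose were of low abundance: 9 had a mean TPM between 1 and 5, among 20 genes of that level, and features of that level rose more often in general (25.3%). Of the 31 genes at 5 TPM or more, 5 rose, against 7.86% of all features of that level. After TMM scaling the counts were 8 of 20 and 2 of 31, against 12.7% and 2.92%. For 6 of the 14, among them *LAMA2*, *COL24A1*, *ITGA11*, *ITGB3* and *ITGB4*, both siControl libraries were under 1 TPM, so they entered the test through siCNOT4 alone and had to differ. With *ITGB8* (0.865 TPM), 7 of the 14 had a siControl mean under 1 TPM. *ITGB8* thus also passed the filter only through siCNOT4, and its group means had to differ. Both siCNOT4 libraries lay above both siControl libraries in 34 of the 51 genes (66.4% of all features) and below them in 4 (10.6%). With 77.1% of all features separated in either direction, these shares are close to the background.

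After TMM scaling 10 of the 51 rose and *COL2A1* fell, against 4.86% and 4.51% of all features (9.37% in either direction). Across 5 scalings (TPM as deposited, TMM, quantile normalization, and removal of each library's trend with transcript length or with length and GC), 5 genes rose every time: *COL1A1*, *COL5A1*, *COL5A2*, *ITGB4* and *ITGB8*. This held for 3.22% of all features. Of these genes, *ITGB4* and *ITGB8* had siControl means under 1 TPM and were tested only because of their siCNOT4 values. No gene of the set fell under all 5, against 1.05% of all features, though *COL2A1* fell under 4. Without siControl replicate 2 all 14 genes remained called, as did all 1792 features called with that library. The total then was 29 of the 51 genes and 57.5% of all features, with the spread coming from the siCNOT4 pair alone. Leaving out either siCNOT4 library in turn left 8 calls, and *COL5A1*, *COL6A2*, *ITGA7*, *ITGAV*, *LAMA2* and *LAMB2* were lost both times (background 3.35% and 3.17%). Without siControl replicate 1 there were 44 calls (79.6%). A pseudocount of 0.1 left 7 calls (3.93%), quantile normalization gave 12 (15.3%), and removal of length and GC trends gave 16 (24.7%). A replicate block gave 17 (25.7%), and TMM scaling without siControl replicate 2 gave 26 (48.1%). Among features averaging 5 TPM or more, fitted alone, 0 of 31 genes were called by limma (1.29%, 13 at an unadjusted p under 0.05).

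**Figure D2:**
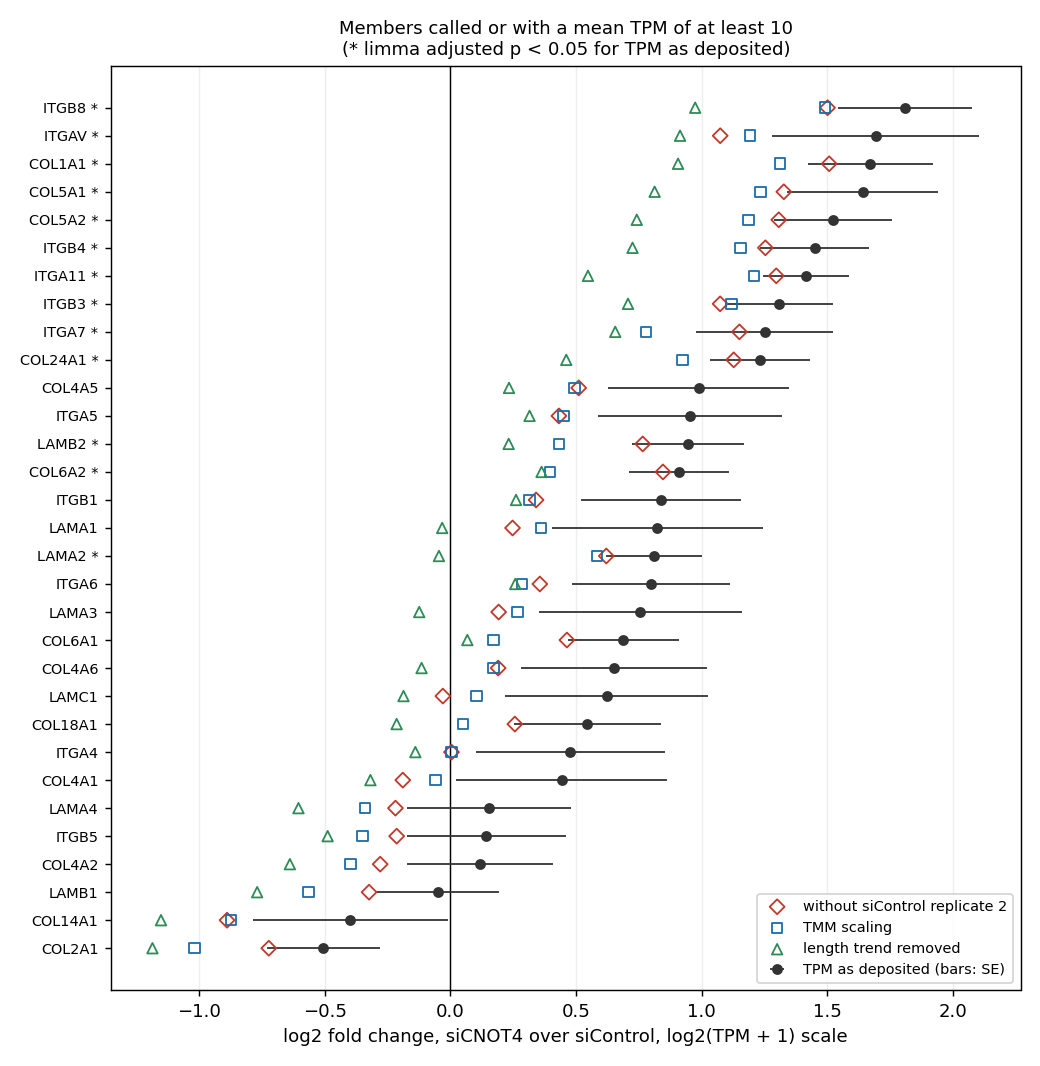
Log2 fold changes of genes that were called or had a mean TPM of at least 10. Black points with SE bars are TPM as deposited, red diamonds leave out siControl replicate 2, blue squares are TMM scaled and green triangles have the length trend of each library removed. From *ITGB8* down to *COL24A1* every symbol lies right of 0, whereas for *LAMC1*, *COL4A1*, *LAMA4*, *ITGB5* and *COL4A2* the symbols fall on both sides of it. For *LAMA1*, *LAMA3*, *COL4A6*, *COL18A1*, *ITGA4* and the called *LAMA2*, only the green triangle lies left of 0.

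Of the fibrillar collagens, which form the cross-striated fibrils of connective tissue, 4 of 6 tested chains rose, while the most abundant had a negative fold change. Over all features 11.3% rose. *COL1A1*, *COL5A2* and *COL24A1* had a mean TPM between 1 and 5, a level at which 25.3% of features rose. *COL1A1*, the main chain of type I collagen, was at 1.39 and 0.906 TPM in siControl and at 5.09 and 6.60 TPM in siCNOT4, with no overlap between the groups. Its mean was 5.08 times higher, and on the log2 scale it rose by 1.67 (SE 0.25, limma adjusted p 0.0248), or 1.31 after TMM scaling and 1.51 without siControl replicate 2. *COL5A1* and *COL5A2* encode type V collagen, which starts the assembly of type I fibrils. *COL5A1* had 2.88 and 1.51 TPM against 8.35 and 9.14 (log2 fold change 1.64, SE 0.30, limma adjusted p 0.0325), with 1.23 after TMM scaling and 1.33 without siControl replicate 2. *COL5A2* had 1.31 and 0.716 TPM against 4.75 and 4.70 (1.52, SE 0.24, limma adjusted p 0.0257), with 1.19 and 1.31. Both were higher in each siCNOT4 library than in any siControl library, and both rose under all 5 scalings, by at least 0.81 and 0.74. *COL24A1*, a minor fibrillar chain, had 0.879 and 0.628 TPM against 2.84 and 3.38 (1.23, limma adjusted p 0.0270), with 0.92 after TMM scaling and 1.13 without siControl replicate 2. As both siControl values are under 1 TPM, it was tested only because of its siCNOT4 values and had to differ. Its call was lost once the length trend was removed (0.46, adjusted p 0.192) or quantile normalization was used.

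*COL2A1*, the cartilage-type fibrillar collagen, was the most abundant fibrillar chain. It had 62.1 and 45.6 TPM in siControl against 35.7 and 38.8 in siCNOT4. The log2 fold change, -0.50 with an SE of 0.23, did not pass the threshold for TPM as deposited (limma adjusted p 0.139). It did pass after TMM scaling, where it fell by 1.02 (adjusted p 0.0287), and it was -0.72 without siControl replicate 2. The ratio of *COL1A1* to *COL2A1* within a library, a pair chosen after the values were seen, is unchanged by any single factor per library. It was 0.0224 and 0.0198 in siControl against 0.142 and 0.170 in siCNOT4. *COL1A1* was at 0.906 TPM in siControl replicate 2, below the 1 TPM in every library required of the ratios planned beforehand. The transcripts of the pair differ in length (6727 and 5071 nt). *COL2A1* thus remained the more abundant of the pair in every library. *COL27A1* had a log2 fold change of 0.60 (limma adjusted p 0.134), and the other 5 fibrillar chains (*COL1A2*, *COL3A1*, *COL5A3*, *COL11A1* and *COL11A2*) stayed below 1 TPM.

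Because type I and V collagen are typical of fibroblasts, fibroblast markers were read beside them. Of 7 such genes, 0 reached 1 TPM in every library, and their summed TPM was 1.39 and 0.879 in siControl against 5.62 and 4.53 in siCNOT4. Most of that difference was *LUM*, a collagen-binding proteoglycan, at 0.182 and 0.225 TPM against 3.75 and 2.67. *DCN*, a related proteoglycan, was at 0.0308 and 0 against 0.226 and 0.196, and *THY1* and *FAP* were at or below 0.103 TPM throughout. *PDGFRB* and *POSTN* were higher in siCNOT4, at no more than 0.607 TPM. *PDGFRA*, the highest of the 7 in siControl, overlapped between the groups (0.833 and 0.455 against 0.752 and 0.549). The part of other cell types in the collagen values was not tested. Endothelial, leukocyte and keratinocyte lists summed to at most 1.83 TPM in any library. The endothelial list was also higher in siCNOT4 (0.361 and 0.250 against 1.18 and 1.39). So was the keratinocyte list (0.0907 and 0.243 against 0.272 and 0.349), while the leukocyte list overlapped between the groups. The HEK293 list summed to 1905 and 1605 TPM in siControl against 1380 and 1381 in siCNOT4. In it, *VIM*, also expressed by mesenchymal cells, was at 917 and 650 TPM against 369 and 354, and *NEFL* was also lower. *PAX2*, *KRT18*, *NEFM* and *LIN28B* of that list were higher in siCNOT4, and the other genes overlapped. Of all features with a mean TPM under 1, 46.4% were higher in siCNOT4 without overlap.

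Type IV collagen, the sheet-forming collagen of basement membranes, is encoded by 6 genes that lie in head-to-head pairs, each pair sharing the stretch between its start sites. In RefSeq (GRCh38.p14) the start sites of *COL4A1* and *COL4A2* are 127 bp apart on chromosome 13. Those of *COL4A3* and *COL4A4* are 419 bp apart on chromosome 2, and those of *COL4A5* and *COL4A6* are 380 bp apart on the X chromosome. Windows from 250 bp before to 50 bp after the start of one gene of each pair are shown. *ITGB8*, which had the largest fold change of the 51 genes on the log2(TPM + 1) scale and a siControl mean of 0.865 TPM, is shown with them. With a pseudocount of 0.1, *ITGA11* and *ITGB3* exceeded it (2.99 and 2.94 against 2.64). All are written 5′ to 3′ on the strand of the named gene. Capitals mark matches, on either strand, to the GC box (GGGCGG), the CCAAT box (CCAAT) and the EGR1 site (GCGTGGGCG).
COL4A2 (chr13:110307034-110307333, + strand): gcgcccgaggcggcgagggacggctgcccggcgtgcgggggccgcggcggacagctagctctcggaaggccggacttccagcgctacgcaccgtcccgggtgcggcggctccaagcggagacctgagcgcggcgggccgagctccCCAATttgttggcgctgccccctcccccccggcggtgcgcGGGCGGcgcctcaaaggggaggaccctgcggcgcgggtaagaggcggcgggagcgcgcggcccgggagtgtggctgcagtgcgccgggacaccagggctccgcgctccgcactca
COL4A3 (chr2:227164374-227164673, + strand): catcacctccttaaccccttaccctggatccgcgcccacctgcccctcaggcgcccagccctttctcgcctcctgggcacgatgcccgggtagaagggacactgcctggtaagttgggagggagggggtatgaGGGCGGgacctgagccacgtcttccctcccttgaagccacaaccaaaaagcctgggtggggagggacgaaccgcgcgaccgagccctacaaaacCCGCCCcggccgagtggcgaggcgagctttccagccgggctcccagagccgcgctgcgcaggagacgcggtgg
COL4A5 (chrX:108439588-108439887, + strand): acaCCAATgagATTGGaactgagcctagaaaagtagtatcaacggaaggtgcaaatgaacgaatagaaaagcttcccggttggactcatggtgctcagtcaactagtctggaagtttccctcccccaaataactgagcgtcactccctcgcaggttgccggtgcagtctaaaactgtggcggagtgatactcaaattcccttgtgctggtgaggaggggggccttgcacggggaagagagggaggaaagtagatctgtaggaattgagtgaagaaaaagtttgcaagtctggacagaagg
ITGB8 (chr7:20330650-20330949, + strand): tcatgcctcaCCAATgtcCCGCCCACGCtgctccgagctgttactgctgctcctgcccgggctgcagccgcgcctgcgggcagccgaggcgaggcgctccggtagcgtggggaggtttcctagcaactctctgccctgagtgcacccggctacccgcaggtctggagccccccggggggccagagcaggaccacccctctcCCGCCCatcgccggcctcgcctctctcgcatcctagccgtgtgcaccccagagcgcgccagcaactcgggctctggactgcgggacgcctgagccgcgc
The *COL4A2* window overlaps that of *COL4A1* by 226 bp and holds 1 GC box and 1 CCAAT box, the *COL4A3* window holds 2 GC boxes, and the *COL4A5* window holds 2 CCAAT boxes. The *COL4A3* and *COL4A5* windows overlap those of *COL4A4* and *COL4A6* by only 82 and 121 bp and do not reach the start site of the partner. The *ITGB8* window holds 2 GC boxes, 1 CCAAT box and 1 EGR1 site, which overlaps a GC box. Windows were found for 55 of the 76 genes. Of all 35116 RefSeq windows of this length, 45.0% hold a GC box, 34.6% a CCAAT box and 0.795% an EGR1 site. Of the 74 windows of these genes, 56.8%, 25.7% and 2.7% hold them, and the genes with an EGR1 site are *ITGB8* and *COL26A1*. A match describes the letters only.

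None of the 6 type IV genes passed the threshold for TPM as deposited, but the pairs differed in level and in fold change. *COL4A1* had 33.6 and 13.4 TPM in siControl against 29.6 and 29.1 in siCNOT4. *COL4A2* had 60.4 and 34.5 against 50.6 and 48.6. For both, the siCNOT4 values lay between the siControl replicates, and the fold changes of 0.44 and 0.12 turned negative without siControl replicate 2 (-0.19 and -0.28). *COL4A3* had 2.24 and 0.924 TPM against 4.15 and 3.73, and *COL4A4* had 5.37 and 2.16 against 7.95 and 7.21. Their fold changes were alike, at 0.98 (SE 0.30, limma adjusted p 0.0684) and 0.93 (SE 0.38, limma adjusted p 0.116), and were 0.61 and 0.43 without siControl replicate 2. *COL4A5* had 18.2 and 8.90 TPM against 27.1 and 25.6 (0.99, limma adjusted p 0.0955), and *COL4A6* had 13.4 and 6.61 against 16.3 and 14.7 (0.65, limma adjusted p 0.213). In these last pairs every siCNOT4 library exceeded both siControl libraries.

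The ratio of partner chains within a library was close between replicates for the other pairs. *COL4A3* to *COL4A4* was 0.417 and 0.427 in siControl against 0.522 and 0.517 in siCNOT4. *COL4A5* to *COL4A6* was 1.35 and 1.35 against 1.66 and 1.74. Both ratios, which were chosen after the values were seen, were thus higher in siCNOT4 by 1.23 and 1.26 times, with replicates closer than the groups. *COL4A3* was at 0.924 TPM in siControl replicate 2, below the 1 TPM required of the ratios planned beforehand. *COL4A1* to *COL4A2* was 0.556 and 0.389 in siControl against 0.585 and 0.599 in siCNOT4. Here the siControl replicates differed by more than replicate 1 differed from siCNOT4.

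**Figure D3:**
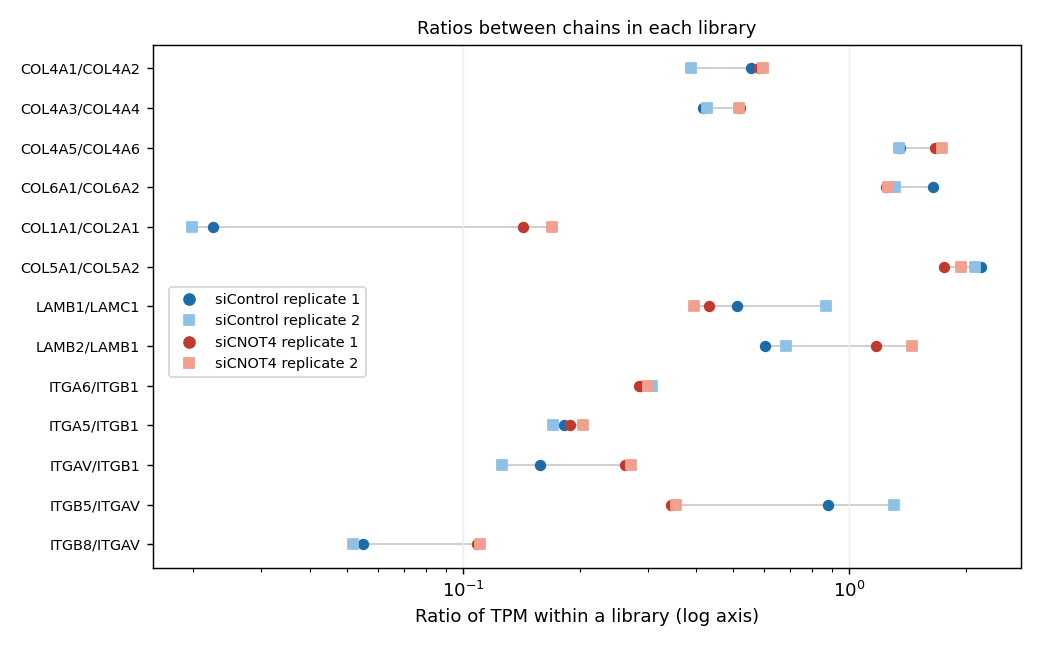
Ratios of TPM between chains within each library, on a log axis, with symbols as in the plot of levels. *COL1A1/COL2A1*, *LAMB2/LAMB1*, *ITGAV/ITGB1*, *ITGB5/ITGAV* and *ITGB8/ITGAV* separate the groups by more than the replicates differ, while *ITGA6/ITGB1* values interleave between 0.285 and 0.308. Of those that separate, all but *ITGAV/ITGB1* were chosen after the values were seen. *ITGB8* was tested only because of its siCNOT4 values, and *COL1A1* and *ITGB8* were under 1 TPM in siControl replicate 2.

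Type VI collagen forms beaded filaments next to basement membranes. *COL6A2* had 29.6 and 27.1 TPM in siControl against 52.7 and 55.5 in siCNOT4 and rose by 0.91 (SE 0.20, limma adjusted p 0.0433), with 0.85 without siControl replicate 2. After TMM scaling it was 0.40 (adjusted p 0.148) and no longer called. *COL6A1* had 48.8 and 35.5 TPM against 65.6 and 69.8 (0.69, limma adjusted p 0.0751). The third chain, *COL6A3*, stayed at 0.0381 to 0.383 TPM, as did *COL6A5* and *COL6A6* at no more than 0.126. The *COL6A1* to *COL6A2* ratio was 1.65 and 1.31 in siControl against 1.25 and 1.26 in siCNOT4.

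Of the collagens that decorate fibrils (FACIT), 6 of 10 were tested and none was called. *COL14A1* was the most abundant, with 18.1 and 8.67 TPM in siControl against 10.2 and 8.47 in siCNOT4. Its fold change was -0.40 (limma adjusted p 0.442) for TPM as deposited, and it fell after quantile normalization by 1.00 and after removal of the length trend by 1.15. *COL21A1*, *COL19A1*, *COL12A1*, *COL9A2* and *COL9A3* had fold changes from 0.35 to 0.68. The membrane-spanning collagens *COL13A1*, *COL23A1* and *COL25A1* had fold changes of -0.35, -0.15 and 0.54, none called. *COL18A1*, the basement membrane collagen that is the source of endostatin, had 17.2 and 11.2 TPM against 20.2 and 21.3 (0.55, limma adjusted p 0.196). *COL26A1* had 2.98 and 2.74 TPM against 2.00 and 1.91 (-0.39, limma adjusted p 0.189) and fell under 3 of the 5 scalings.

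The balance between the laminin beta chains differed between the groups. *LAMB2*, the beta chain of glomerular and synaptic laminins, had 32.4 and 25.1 TPM in siControl against 52.8 and 59.1 in siCNOT4, without overlap. It rose by 0.94 (SE 0.22, limma adjusted p 0.0471), or 0.77 without siControl replicate 2, and 0.43 after TMM scaling (adjusted p 0.0986). *LAMB1*, the more widespread beta chain, had 53.8 and 36.6 TPM against 44.9 and 40.8, and its fold change was -0.05 (limma adjusted p 0.881). The transcripts of these chains are of similar length (5674 and 5766 nt), and the ratio of *LAMB2* to *LAMB1* within a library, a pair chosen after the values were seen, was 0.603 and 0.686 in siControl against 1.17 and 1.45 in siCNOT4. *LAMB1* was therefore the more abundant beta chain in each siControl library and *LAMB2* in each siCNOT4 library.

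The gamma chain *LAMC1* had 105 and 42.1 TPM in siControl against 104 and 103 in siCNOT4, so siControl replicate 2 alone stood apart. Its fold change was 0.62 (limma adjusted p 0.263) with that library and -0.03 without it. Relative to *LAMC1*, *LAMB1* was at 0.511 and 0.870 in siControl against 0.434 and 0.397 in siCNOT4, and *LAMA1* was at a mean of 0.0998 against 0.123. *LAMA3*, an alpha chain of epithelial laminins, had 18.6 and 7.97 TPM against 20.4 and 22.4 (0.76, limma adjusted p 0.194), and the beta chain *LAMB3* was at 0.439 to 0.883 TPM, below the filter. *LAMC3* had 6.23 and 3.86 TPM against 3.53 and 3.87 (-0.33, limma adjusted p 0.388) and fell under 3 of the 5 scalings.

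Among alpha chains, which carry the receptor-binding end of a laminin, *LAMA2* rose, from 0.685 and 0.295 TPM to 1.55 and 1.63 (0.81, SE 0.19, limma adjusted p 0.0469), with 0.58 after TMM scaling and 0.62 without siControl replicate 2. It too was tested only because of its siCNOT4 values. This call was found under none of the other 4 scalings, and removal of the length trend gave -0.05. *LAMA4* had 20.2 and 11.6 TPM against 17.9 and 16.5, *LAMA1* had 10.5 and 4.19 against 12.6 and 12.7, and *LAMA5* had 7.19 and 3.57 against 6.84 and 8.25. Their fold changes of 0.15, 0.82 and 0.48 were not called.

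Among integrin alpha subunits, all 11 tested had positive fold changes for TPM as deposited and after TMM scaling. Of all 14208 features, 11531 and 7401 had positive fold changes under these settings. *ITGA1*, *ITGA4*, *ITGA8* and *ITGA9* turned negative under at least 1 other scaling. For TPM as deposited 3 of the 11 rose, against 11.3% of all features. *ITGAV*, the alpha subunit of the RGD-binding vitronectin and TGF-beta-activating receptors, had 22.9 and 9.12 TPM in siControl against 50.1 and 48.3 in siCNOT4. The groups did not overlap, and it rose by 1.69 (SE 0.41, limma adjusted p 0.0488), with 1.07 without siControl replicate 2. After TMM scaling it was 1.19 (adjusted p 0.0605). *ITGA7*, a laminin receptor subunit of muscle, had 6.19 and 5.25 TPM against 14.1 and 15.8 (1.25, SE 0.27, limma adjusted p 0.0433), with 0.78 after TMM scaling (adjusted p 0.0497) and 1.15 without siControl replicate 2. *ITGA11*, a collagen receptor subunit of fibroblasts, had 0.308 and 0.109 TPM against 2.25 and 2.18 (1.42, SE 0.17, limma adjusted p 0.0227), with 1.21 and 1.30. It was tested only because of its siCNOT4 values, and its call was lost with the length trend removed (0.55, adjusted p 0.157) and with length and GC removed (0.65, adjusted p 0.101).

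The remaining alpha subunits were not called. *ITGA6*, the main laminin receptor subunit here, had 41.9 and 22.3 TPM against 54.5 and 53.3 (0.80, limma adjusted p 0.11). *ITGA5*, the fibronectin receptor subunit, had 26.5 and 12.3 against 36.0 and 36.1 (0.95, limma adjusted p 0.105). *ITGA3*, another laminin receptor subunit, had 5.02 and 4.90 against 10.3 and 10.2 (0.91, limma adjusted p 0.0615), and its value without siControl replicate 2 was 0.90. The collagen receptor subunits *ITGA1* and *ITGA2* had fold changes of 0.91 and 1.15, and *ITGA4*, *ITGA8* and *ITGA9* had 0.48, 0.65 and 0.45, none called.

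Of the 5 integrin beta subunits tested, 3 rose, but all 3 had a siControl mean under 1 TPM. They entered the test only through siCNOT4, and their group means had to differ. *ITGB3* and *ITGB4* were under 1 TPM in both siControl libraries, and *ITGB8* in replicate 2. *ITGB8*, which pairs only with *ITGAV*, had 1.26 and 0.472 TPM in siControl against 5.44 and 5.34 in siCNOT4, and rose by 1.81 (SE 0.27, limma adjusted p 0.0244). *ITGB3*, the beta subunit of the vitronectin receptor, had 0.441 and 0.0417 TPM against 1.80 and 2.28 (1.31, SE 0.21, limma adjusted p 0.0272). *ITGB4*, partner of *ITGA6* in hemidesmosomes, had 0.901 and 0.447 TPM against 3.37 and 3.70 (1.45, SE 0.22, limma adjusted p 0.0250). All 3 were above every siControl value in both siCNOT4 libraries, and *ITGB8*, *ITGB3* and *ITGB4* were at 1.49, 1.12 and 1.15 after TMM scaling and at 1.50, 1.07 and 1.25 without siControl replicate 2. *ITGB1* had 145 and 72.4 TPM against 191 and 177 (0.84, limma adjusted p 0.103). *ITGB5*, also a partner of *ITGAV*, had 20.2 and 11.9 against 17.4 and 17.1 (0.14, limma adjusted p 0.741), and -0.21 without siControl replicate 2.

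Relative to *ITGB1* in the same library, *ITGAV* was higher in siCNOT4. *ITGAV* to *ITGB1* was 0.158 and 0.126 in siControl against 0.263 and 0.273 in siCNOT4, 1.89 times higher, or 1.70 times without siControl replicate 2. For *ITGA3* the ratio was 0.0346 and 0.0676 against 0.0538 and 0.0574, overlapping between the groups. For *ITGA5* it was 0.182 and 0.170 against 0.188 and 0.204, and for *ITGA6* it was 0.289 and 0.308 against 0.285 and 0.301. Among pairs chosen after the values were seen, *ITGB5* to *ITGAV* was 0.882 and 1.30 against 0.346 and 0.355, and *ITGB8* to *ITGAV* was 0.0550 and 0.0518 against 0.108 and 0.111. *ITGB8* was at 0.472 TPM in siControl replicate 2, below the 1 TPM required of the ratios planned beforehand. It passed the filter only through siCNOT4, so a higher *ITGB8* to *ITGAV* ratio was partly built in. The transcripts differ in length (*ITGAV* 7030, *ITGB1* 3729, *ITGB5* 4372 and *ITGB8* 8751 nt). A ratio within a library does not remove a trend with length. These ratios are given as a description and were not tested.

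Summed over all members, collagens reached 354 and 225 TPM in siControl against 386 and 390 in siCNOT4. Laminin chains summed to 256 and 136 against 267 and 271, integrin alpha subunits to 140 and 69.2 against 214 and 209, and integrin beta subunits to 168 and 85.3 against 219 and 206. The ratios of group means were 1.34, 1.37, 2.02 and 1.68, each with p = 0.333 in the exact two-sided permutation test, the smallest p that 2 libraries against 2 allow. Without siControl replicate 2 they were 1.10, 1.05, 1.51 and 1.27. After TMM scaling, collagens and laminins were at 0.951 and 0.986, so their direction depended on the scaling, while integrin alpha and beta subunits stayed above 1, at 1.46 and 1.21.

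The 25 genes with a mean TPM under 1 were listed above 0 in at least 1 library each. In 18 of them both siCNOT4 libraries were above both siControl libraries and in 0 below, while of all 6249 features of that level 46.4% were higher and 2.58% lower. *COL22A1* had 0.0243 and 0.0321 TPM against 0.562 and 0.530, and *COL16A1* had 0.0415 and 0.0974 against 0.580 and 0.485. *COL15A1*, *COL10A1* and *LAMB4* were listed at 0 in both siControl libraries, the first with 0.108 and 0.140 TPM in siCNOT4. *ITGB2* and *ITGB7*, the beta subunits of leukocyte integrins, stayed at or below 0.417 TPM, as did *ITGB6*.

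The transcripts of these genes are long, and long transcripts were lower in siControl replicate 2. The median transcript length (GENCODE 29) was 6494 nt for the 51 tested genes and 2986 nt for all 13750 tested features with a length. Replicate 1 of siControl exceeded replicate 2 in 49 of the 51 genes and in 11022 of all 13750 features. The median difference was 0.63 on the log2(TPM + 1) scale over the 51 genes against 0.39 over all features. The siCNOT4 replicates differed by a median of 0.01 in the same genes. Across the 51 genes, the difference between siControl replicates had a Spearman rho of 0.503 with transcript length (0.601 across all features). These points share their libraries and are not independent.

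Medians were also taken within bins of transcript length. From 2000 to under 4000 nt, the median fold change was 0.80 over 11 of the genes against 0.47 over all 5233 features, and 0.36 against 0.29 without siControl replicate 2. From 4000 to under 6000 nt it was 0.62 over 10 genes and 0.67 over 2640 features. From 6000 to under 8000 nt, the median fold change was 0.64 over 18 of the genes and 0.78 over all 1111 features, and at 8000 nt or more it was 0.86 over 12 genes and 0.88 over 940 features. Without siControl replicate 2 these longest bins gave 0.22 against 0.38 and 0.42 against 0.44. Over all lengths, without siControl replicate 2 the median over the 51 genes was 0.34 and that over all features 0.29. Removal of each library's length trend brought the medians to -0.05 and 0.01. Under that setting 8 genes rose and 10 fell (12.5% and 13.6% of all features, 26.1% in either direction), the latter including *COL2A1*, *COL14A1*, *COL4A2*, *LAMB1*, *LAMA4*, *LAMC3* and *ITGB5*. The 8 that rose were *COL1A1*, *COL5A1*, *COL5A2*, *ITGA7*, *ITGAV*, *ITGB3*, *ITGB4* and *ITGB8*.

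**Figure D4:**
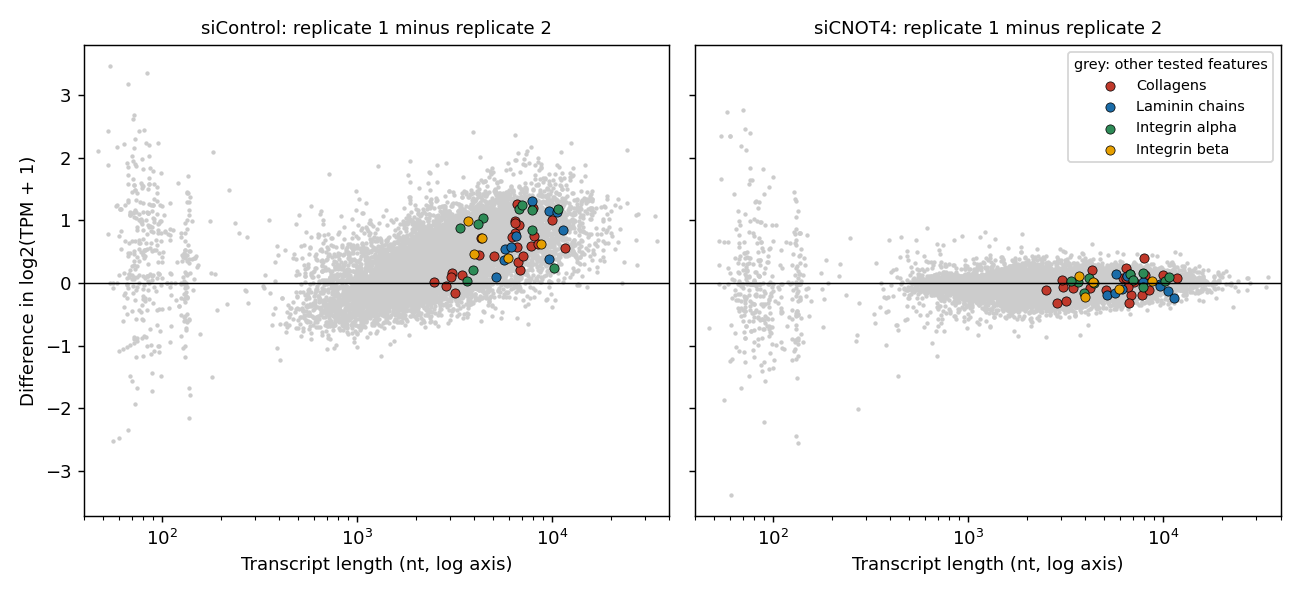
Difference between replicate 1 and replicate 2 in log2(TPM + 1), plotted against transcript length on a log axis, for siControl (left) and siCNOT4 (right). Coloured points are the 51 tested genes by class and grey points the other tested features. In siControl the points climb with length and 49 of the 51 genes lie above 0 (11022 of all 13750 features), whereas in siCNOT4 they scatter around 0.

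Codon composition was read beside these values, since codon usage was the subject of the series. GC3, the percentage of codons whose last base is G or C, had a median of 53.0% over the 51 genes, with a range from 27.7% (*COL24A1*) to 82.8% (*ITGB4*), and of 59.0% over 12884 tested features with a coding sequence. Glycine codons made up a median of 26.6% of collagen coding sequences against 6.42% over all features, and proline codons 16.9% against 5.60%. The Spearman rho between GC3 and the fold change was -0.157 across the 51 genes and -0.337 across all features, and without siControl replicate 2 it was -0.029 and -0.257. Genes of both extremes were among those that rose, such as *COL24A1* and *COL5A2* (27.7% and 28.8%) and *ITGB4* and *COL6A2* (82.8% and 80.9%). Of these, *COL24A1* and *ITGB4* were tested only because of their siCNOT4 values. *COL24A1* was no longer called with the length trend removed, nor *COL6A2* after TMM scaling. A link between GC3 and the rise of these genes was not tested.

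Of 15 tested enzymes and chaperones that modify and fold collagen, 1 fell and 0 rose by limma, and 8 had positive fold changes. Of all 14208 features, 1.3% fell, 11.3% rose and 11531 had positive fold changes. The one that fell was *FKBP10*, a prolyl isomerase of the endoplasmic reticulum, which had 235 and 230 TPM in siControl against 148 and 154 in siCNOT4 (-0.62, SE 0.14, limma adjusted p 0.0439). After TMM scaling *SERPINH1* (the collagen chaperone HSP47), *PLOD1* (a lysyl hydroxylase) and *CRTAP* (part of the prolyl 3-hydroxylase complex) fell with it, by 1.07, 0.75 and 0.68. Under that scaling 4.51% of all features fell. *SERPINH1* had 133 and 89.7 TPM against 73.8 and 74.5 (-0.55, limma adjusted p 0.116 for TPM as deposited). The median of this list was 0.02 against 0.50 over all features, and that of the other 5 lists lay between 0.42 and 0.62.

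Over all features 11.3% rose, and the 4 other lists with a gene that rose had counts near that share. Among 17 export, processing and crosslinking genes, 2 rose. *LOXL4*, a lysyl oxidase that crosslinks collagen, had 2.49 and 2.16 TPM against 11.1 and 11.7 (1.90, SE 0.25, limma adjusted p 0.0234), and *TLL2*, a procollagen-processing protease, had 0.513 and 0.402 against 1.69 and 1.71 (0.89), also tested only because of its siCNOT4 values. Of 11 other basement membrane genes and laminin receptors, *SPARC*, a collagen-binding matrix protein, rose from 77.6 and 54.4 TPM to 145 and 145 (1.15, SE 0.21, limma adjusted p 0.0329). Of 10 other matrix ligands of integrins, 0 were called by limma. Among 24 genes of the integrin adhesion complex, *LIMS2*, *TLN2* and *FERMT1* rose, by 0.90, 1.13 and 1.17, and among 12 matrix proteases and inhibitors, *MMP11* and *TIMP2* rose, by 1.22 and 0.91. After TMM scaling *LOXL4* and *MMP11* were the genes of these 5 lists that still rose, and *LOXL1* and *MMP15* fell.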

How the data were processed

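RNA from 4 HEK293 libraries was compared, 2 per group, with groups and replicate numbers taken from sample titles. Per the labels' protocols, total RNA was used for stranded poly(A) libraries. Per the submitters' processing notes, FastQC 0.11.2, STAR 2.5.3a, featureCounts and build hg19 were used; annotation and strand setting are not given in the sources used here. The deposited TPM tables hold no coordinates and no read totals. Whole-read steps in values up to 0.1 TPM (tolerance 0.05), with GENCODE lengths, put the depth at about 30.7, 29.8, 31.9 and 31.4 in units of 1000000 reads, or 73.2 to 88.3 reads per TPM for a transcript of 6000 nt.

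The test was limma 3.58.1, run in R 4.3.3 on log2(TPM + 1) with a trend, no covariates, features averaging at least 1 TPM, and Benjamini-Hochberg adjustment over all features at 0.05. The step was tested on simulated data. Alternatives were a pseudocount of 0.1, other filters, TMM scaling (M trim 0.3, A trim 0.05), quantile normalization, loess removal (span 0.3) of length or length and GC trends, a replicate block, and leaving out each library. Transcript properties came from GENCODE 29 (18438 features matched by symbol, 983 through RefSeq synonyms, 1036 unmatched). The longest complete coding sequence stood for each gene. By the naming rule, genes were those called, those with a mean TPM of at least 10 and the highest of each role group; other members given with values were chosen after these were seen. Genes from the pathway lists were those called. Members and lists were chosen with earlier results of these data known. Values of 1 tested gene are not reported here; it stays in the counts.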

Additional observations from a re-analysis of the deposited data

How the results depend on the processing

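Counts of calls depended strongly on the setting. Over all features and over the 51 genes the calls were 1792 and 14 with the deposited TPM. A pseudocount of 0.1 gave 558 and 7, and leaving out the filter gave 0 and 0, where 6701 features and 28 of the 76 genes had an unadjusted p under 0.05. They were 147 and 0 with a mean TPM of at least 5 (4476 and 13 at an unadjusted p under 0.05), 3589 and 18 with the length trend removed, and 3397 and 16 with the length and GC trend removed. Leaving out 1 library gave 450 to 11311 and 8 to 44; without siControl replicate 2 it was 8171 and 29. TMM scaling and without siControl replicate 2 together, chosen after seeing the data, gave 6829 and 26. The arm left with a single library is assumed there to vary like the other group. With the replicate block 3655 and 17 were called, the 14 among them; the deviations of same-numbered libraries had a correlation of 0.171, and nothing in the labels pairs them. Apart from *COL4A3*, *ITGA5* and *ITGB1*, which were gained, the block changed no call of the 51 genes. TMM and quantile normalization gave 11 and 12 calls. The cause of these differences was not tested.

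The median over the genes minus that over all features was 0.19 with the deposited TPM. It was 0.31 for a pseudocount of 0.1, 0.26 with TMM, -0.057 with the length trend removed, 0.081 with length and GC, 0.042 to 0.40 leaving out 1 library, and 0.074 with TMM and without siControl replicate 2. Summed TPM ratios turned below 1 with TMM for collagens (0.951) and laminins (0.986) and with median scaling (0.910 and 0.948); for integrin alpha and beta, median scaling gave 1.41 and 1.17. Leaving out 1 library gave 1.10 to 1.72, 1.05 to 1.98, 1.51 to 3.06 and 1.27 to 2.49 for the 4 classes. Ratios of group means of partner ratios, leaving out 1 library, were 1.06 to 1.52 (*COL4A1/COL4A2*), 0.760 to 0.954 (*COL6A1/COL6A2*), 0.478 to 0.813 (*LAMB1/LAMC1*), 0.862 to 1.07 (*LAMA5/LAMC1*), 0.953 to 1.01 (*ITGA6/ITGB1*), 1.70 to 2.12 (*ITGAV/ITGB1*) and 0.822 to 1.61 (*ITGA3/ITGB1*).

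Among the genes chosen by the naming rule, fold changes that changed sign were all uncalled for TPM as deposited, except *LAMA2*. With TMM they were *COL4A1* -0.060, *COL4A2* -0.40, *ITGB5* -0.35 and *LAMA4* -0.34. With quantile normalization they were *COL4A1* -0.10, *COL4A2* -0.30, *COL18A1* -0.027, *COL25A1* -0.082, *ITGA4* -0.12, *ITGB5* -0.43 and *LAMA4* -0.42. With the length trend removed they were *COL4A1* -0.32, *COL4A2* -0.64, *COL4A6* -0.11, *COL18A1* -0.21, *COL25A1* -0.28, *ITGA4* -0.14, *ITGB5* -0.49, *LAMA1* -0.033, *LAMA2* -0.046, *LAMA3* -0.12, *LAMA4* -0.60 and *LAMC1* -0.19. With length and GC removed they were *COL4A1* -0.14, *COL4A2* -0.35, *COL25A1* -0.36, *ITGA4* -0.19, *ITGB5* -0.38, *LAMA2* -0.014, *LAMA3* -0.0021, *LAMA4* -0.58 and *LAMC1* -0.11. With TMM and without siControl replicate 2 they were *COL4A1* -0.49, *COL4A2* -0.58, *COL4A6* -0.10, *COL18A1* -0.036, *COL25A1* -0.33, *ITGA4* -0.28, *ITGB5* -0.51, *LAMA1* -0.036, *LAMA3* -0.10, *LAMA4* -0.51 and *LAMC1* -0.34. Leaving out 1 library gave ranges that crossed 0 for *COL4A1* (-0.19 to 1.07), *COL4A2* (-0.28 to 0.51), *COL14A1* (-0.89 to 0.093), *COL25A1* (-0.063 to 1.14), *ITGB5* (-0.21 to 0.50), *LAMA4* (-0.22 to 0.52), *LAMB1* (-0.32 to 0.22) and *LAMC1* (-0.030 to 1.27). The lowest value was reached without siControl replicate 2, and the highest without siControl replicate 1.

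Depth limits the low genes: at 73.2 to 88.3 reads per TPM for a transcript of 6000 nt, values of a few hundredths of a TPM rest on a few reads, and such estimates cover counting error only.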
